A study of Mus musculus with 6 samples.

Results

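The transcripts described here are those of 38 genes for cytosolic chaperones, heat shock proteins and their regulators, chosen by symbol from a count table of 27131 genes. All 38 had a row and all 38 passed the filter on low counts, which left 16960 genes to test. Hspd1 and Hspe1, although in the set, are mitochondrial chaperones. The table holds messenger RNA counts from the levator ani/bulbocavernosus (LA/BC) muscle, an androgen-sensitive muscle pair of the male perineum, taken from mice of 14 weeks on standard chow. There were 3 wild-type mice (WT) and 3 mice of the genotype labelled 113Q, a knock-in model of spinal and bulbar muscular atrophy (SBMA). The labels give neither strain, sex nor litter, name no treatment, and do not say how the allele was built or whether it was carried in one copy or in both. SBMA is a disease of motor neurons and muscle caused by an expanded glutamine tract in the androgen receptor. Setting 113Q against WT addresses how the protein folding machinery of the muscle differs in the model at the level of transcripts.

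Chaperones hold unfolded or partly folded proteins and help them reach or regain their shape. Hsp70 proteins bind short stretches of client protein under the control of J-domain proteins, which deliver clients and stimulate ATP hydrolysis, and of nucleotide exchange factors such as the Hsp110 and Bag proteins. Hsp90 takes over clients that are close to their final shape, steroid receptors among them, and the androgen receptor is held ready for hormone by an Hsp90 and Hsp70 complex. Small heat shock proteins keep unfolding proteins soluble, and several of them are muscle proteins that sit at the Z-disc. Heat shock factors switch on many of these genes under stress by binding heat shock elements, which are inverted repeats of a short GAA unit.

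The promoters of the heat shock proteins are shown here because the members that rose and those that fell can be set against that element. RefSeq promoter windows (build GRCm38.p6, from 250 bases before to 50 after each start) were found for 31 of the 38 genes. The motifs searched on both strands were the inverted pairs GAANNTTC and TTCNNGAA, and triplets, in which a further GAA or TTC unit follows the pair after any 2 bases so that the units alternate. Each triplet contains overlapping pairs. A pair was found in the windows of 17 of these 31 genes (54.8%), against 17.0% of all genes with a window, and a triplet in 5 (16.1%), against 0.662%. Of the 10 members higher in 113Q, 5 had a window and 4 of them held a pair. Hspa8, Hsp90aa1, Hsp90ab1, Cryab and St13 also rose but had no window, so this count leaves out both Hsp90 genes and the constitutive Hsp70. Of the 15 members lower in 113Q, 14 had a window and 7 of them held a pair. Of the 13 that did not pass, 12 had a window and 6 held a pair. The triplets were in Hsph1, which rose, in Dnajb6, Hspd1 and Hspe1, which fell, and in Chordc1, which did not pass. A match is a description of these letters, not of factor binding. In the sequences that follow, from 5′ to 3′ on the gene's strand, capitals mark the matched letters. A gene with several windows was counted above if any of them held the motif. The other Dnaja1 windows, further downstream, held no pair, and the other Dnajb6 and Hsph1 windows held the same sites as those used here. The first 5 are the 250 bases upstream of a RefSeq start of Hspa1b (chr17:34959239-34959488, minus strand), Hspb1 (chr5:135887669-135887918, plus strand), Dnaja1 (chr4:40722218-40722467, plus strand), Dnajb6 (chr5:29735729-29735978, plus strand) and Hsph1 (chr5:149636316-149636565, minus strand).
Hspa1b: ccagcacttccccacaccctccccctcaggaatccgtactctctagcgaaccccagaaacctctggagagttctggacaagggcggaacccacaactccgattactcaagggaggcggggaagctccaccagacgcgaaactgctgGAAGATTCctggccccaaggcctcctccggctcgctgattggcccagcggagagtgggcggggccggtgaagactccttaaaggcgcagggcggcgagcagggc
Hspb1: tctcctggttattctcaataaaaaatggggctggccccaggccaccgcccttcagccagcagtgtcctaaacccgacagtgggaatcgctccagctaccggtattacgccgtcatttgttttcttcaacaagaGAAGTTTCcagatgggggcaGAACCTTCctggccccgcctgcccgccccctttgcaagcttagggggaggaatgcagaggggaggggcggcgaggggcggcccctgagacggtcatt
Dnaja1: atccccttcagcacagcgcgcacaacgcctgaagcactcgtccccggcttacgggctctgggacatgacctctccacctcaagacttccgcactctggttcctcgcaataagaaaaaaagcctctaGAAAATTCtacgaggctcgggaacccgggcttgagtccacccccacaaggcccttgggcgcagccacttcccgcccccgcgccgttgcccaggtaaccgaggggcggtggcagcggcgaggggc
Dnajb6: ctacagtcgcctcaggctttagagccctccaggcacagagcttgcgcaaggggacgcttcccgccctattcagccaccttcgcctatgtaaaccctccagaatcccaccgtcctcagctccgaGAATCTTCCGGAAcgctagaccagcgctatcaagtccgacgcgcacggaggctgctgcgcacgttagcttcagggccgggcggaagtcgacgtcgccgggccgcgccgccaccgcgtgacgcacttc
Hsph1: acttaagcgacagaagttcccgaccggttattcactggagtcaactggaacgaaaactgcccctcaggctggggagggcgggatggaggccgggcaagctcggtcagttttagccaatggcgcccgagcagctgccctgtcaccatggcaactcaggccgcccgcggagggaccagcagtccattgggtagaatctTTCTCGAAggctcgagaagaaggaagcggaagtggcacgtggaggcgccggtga
The remaining 3 are a 30-base site just inside the Hsph1 transcript (chr5:149636276-149636305, minus strand), 72 bases between the start of Hspe1 and a RefSeq start of Hspd1, which run in opposite directions (chr1:55088028-55088099, written on the Hspe1 strand), and a 30-base site across the start of Chordc1 (chr9:18292260-18292289, plus strand).
Hsph1 site: gcagaTTCTGGAAAGTTCtcctcagtaggc
Hspe1 and Hspd1: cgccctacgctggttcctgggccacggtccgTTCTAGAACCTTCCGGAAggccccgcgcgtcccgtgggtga
Chordc1 site: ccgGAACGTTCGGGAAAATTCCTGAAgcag
The upstream bases of Hspa1a were identical to those of Hspa1b at 247 of 250 positions (98.8%).

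Library totals ran from 43581087 to 73873481 estimated counts. The scaling factors of edgeR (TMM, which sets the bulk of genes equal) were 0.768 to 0.794 in WT and 1.26 to 1.32 in 113Q, so they follow the group. With library totals alone in place of these factors, the median over all genes shifted by 0.72 on the log2 scale, and every rise or fall given here is relative to the other genes unless that other scale is named. Levels are counts scaled to a common library size with the TMM factors (CPM). The 11 myofibre markers, Ckm among them, summed to 190902 to 211852 CPM in WT and to 49564 to 58823 CPM in 113Q, and all 11 fell. In whole muscle, fewer cells of a type and less RNA per cell cannot be told apart. Gland and epithelium markers summed to 2.77 to 3.26 CPM in WT mice 1 and 3 and 113Q mouse 1, but to 60.9 CPM in WT mouse 2 and to 50.3 and 96.0 CPM in 113Q mice 2 and 3. Germ cell markers summed to at most 3.23 CPM in any mouse, with Pgk2 at 0 in all. In the alternatives below, libraries are split at 1 CPM of Epcam, an epithelial adhesion gene, which puts WT mouse 2 and 113Q mice 2 and 3 on one side. Of 8 smooth muscle markers 1 rose and 1 fell, and their sums overlapped, at 6672 to 7080 CPM in WT against 6099 to 6945 CPM in 113Q. The marker that rose, Acta2, ran from 46.4 to 184 CPM in the WT mice and from 425 to 867 CPM in the 113Q mice. Myh11 ran from 29.9 to 197 CPM in WT and from 326 to 864 CPM in 113Q. It did not pass (log2 fold change 2.22; edgeR adjusted p = 0.111), although its groups did not overlap. Most of each sum came from other markers, and the one that fell, Des, is also a myofibre marker. The part of any of these markers in the results was not tested.

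Relative to all genes, in 113Q muscle the cytosolic Hsp70 Hspa8, both Hsp90 genes and the Hsp110-type Hsph1 and Hspa4l were higher. The most abundant Hsp110-type gene, Hspa4, was not called. Lower were 5 of the 8 J-domain genes of the set, 4 of 7 small heat shock proteins and the mitochondrial chaperonin. The largest rises were Hspa4l, 3.85-fold, and Hsph1, 2.36-fold, and the largest falls were Hspb6, to 0.390 of its WT level, and Dnajb5, to 0.396. Without WT mouse 2, the log2 fold change of Hspb6 was -0.99, smaller in size than those of Dnajb5 (-1.25) and Hspb7 (-1.04). Of the 38 genes, 10 rose (26.3%), 15 fell (39.5%) and 13 did not pass the test (edgeR's quasi-likelihood test, Benjamini-Hochberg adjusted p below 0.05 over all genes). Over all 16960 genes tested, 16.5% were called higher and 18.1% lower, or 34.6% in either direction against 25 of the 38 (65.8%). The 38 genes had a median level of 90.8 CPM against 11.0 CPM for all genes tested, and the part of that abundance in the share called was not tested. Their median log2 fold change was -0.12, against 0.01 for all genes, and 13 of them were higher in every 113Q mouse than in any WT mouse, against 25.1% of all genes. For 16 the reverse held, against 24.8%, so 29 did not overlap, against 49.9%. On the CPM scale the 38 transcripts summed to 8533 ± 391 in WT and 8625 ± 299 in 113Q (mean ± SD, n = 3 each). As a share of all deposited counts they made up 0.650%, 0.690% and 0.654% in WT and 1.15%, 1.05% and 1.12% in 113Q. The sum thus differed between the groups on the unscaled counts and differed by less than the spread between mice on the scaled ones.

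**Figure D1:**
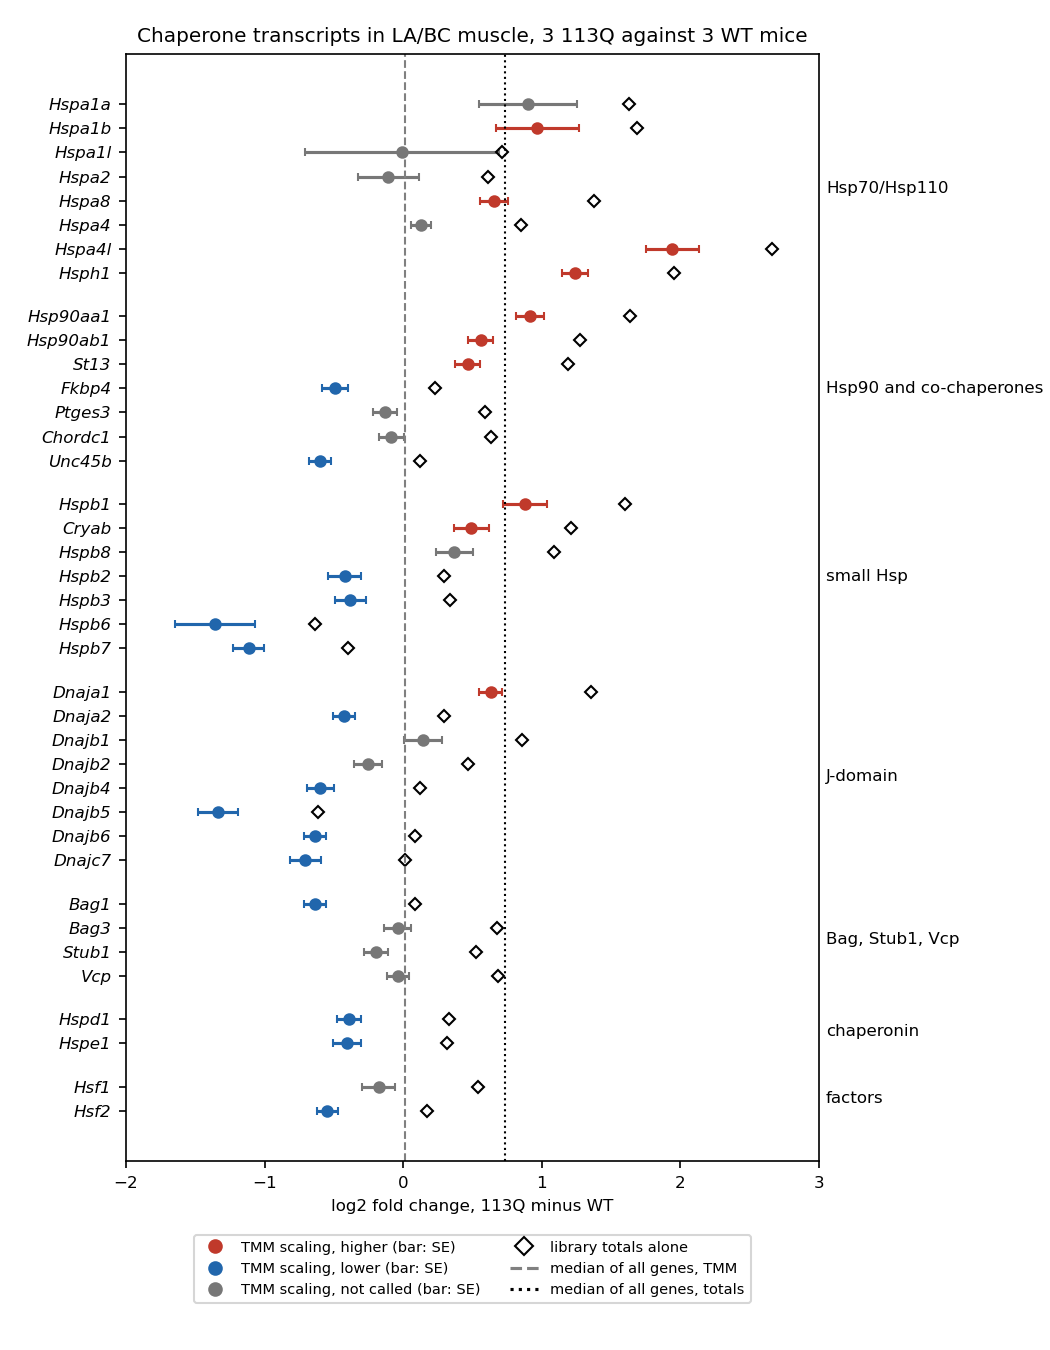
Log2 fold change of each of the 38 transcripts (x axis, 113Q minus WT, 3 mice a group), by family (y axis). Circles with SE bars use TMM scaling and are coloured by the test result, open diamonds use library totals alone, and the vertical lines mark the median of all genes on each scale (0.01 and 0.73). Hspa4l and Hsph1 stand farthest to the right, and Hspb6, Dnajb5 and Hspb7 are left of 0 on both scales.

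With library totals alone, 27 of the 38 were called higher and 2 lower, against 64.9% and 4.19% of all genes. All 10 genes that rose were also called higher on that scale, where the upward shift of the median favours rises. Of the 15 that fell, Hspb7 and Dnajb5 were also called lower, Hspb6 kept a negative log2 fold change of -0.63 that did not pass (adjusted p = 0.0765), and the other 12 had values above 0, of which 5 were called higher.

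The calls of 7 genes that rose (Hspa4l, Hspa8, Hsp90aa1, Hsp90ab1, Dnaja1, Hsph1 and St13) and of 2 that fell (Hspb7 and Dnajb5) held under all 17 alternatives run. Library totals alone, among the 17, moved the median of all genes up by 0.72 on the log2 scale. It therefore worked against falls and not against rises, so these 2 counts cannot be compared. Dnajb6, Dnajc7, Bag1, Hsf2, Unc45b and Fkbp4 lost their lower call on that scale and kept it under every other alternative. Some members share sequence with other genes, which makes the division of their reads uncertain. From 19.6% upwards of the 50-base words of Hspa8, Hsp90aa1, Hspb1, Dnaja1, Dnajb6, Hspd1, Hspe1, Vcp and Ptges3 occur in other genes, pseudogenes among them, with 47.5% for Hsp90aa1 and 50.1% for Hspb1 the highest shares. Exons of Dnaja1, Dnajb6, Hspd1, Hspe1 and Vcp also overlap those of a neighbour on the other strand, and the shares include such overlaps.

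The Hsp70 and Hsp110 family, the ATP-driven core of the system, had 4 of 8 transcripts higher and 0 lower, with a median log2 fold change of 0.78 (1.50 with library totals alone). The shares over all genes tested, to set beside the counts of this family and those below, were 16.5% higher and 18.1% lower. With all 6 libraries, none was lower at an unadjusted p below 0.05 in edgeR or by DESeq2 or limma. Hspa8, the constitutive Hsp70, was at 627, 661 and 632 CPM in WT and at 1146, 923 and 953 CPM in 113Q. The groups did not overlap, and the log2 fold change was 0.65 ± 0.10 (SE; edgeR adjusted p = 0.00182). Hspa4l, an Hsp110 relative best known from testis, rose from 2.78, 4.62 and 4.39 CPM to 15.5, 14.7 and 15.4 CPM. That is a log2 fold change of 1.94 ± 0.19 (edgeR adjusted p = 0.000197), and every 113Q mouse was above every WT mouse. Hsph1, the Hsp110 nucleotide exchange factor that works with Hsp70 in protein disaggregation, rose from 43.0, 50.4 and 49.3 CPM to 103, 118 and 116 CPM. Its log2 fold change was 1.24 ± 0.09 (edgeR adjusted p = 6.06e-05). Hspa4, a further Hsp110-type protein, did not pass, at 177 to 187 CPM in WT and at 196 to 202 CPM in 113Q (log2 fold change 0.13 ± 0.07; edgeR adjusted p = 0.195).

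The stress-inducible Hsp70 genes Hspa1a and Hspa1b lie close together on chromosome 17 (mm10 34969190 to 34972156 and 34956436 to 34959238) and were low. Of the 50-base words of Hspa1a transcripts, 58.8% also occur in Hspa1b, so the division of reads between them is uncertain. Hspa1b rose from 1.75, 4.38 and 3.27 CPM to 5.79, 6.14 and 6.54 CPM (log2 fold change 0.97 ± 0.30; edgeR adjusted p = 0.0375). Hspa1a was at 1.63, 4.04 and 1.67 CPM in WT and at 4.85, 4.06 and 4.86 CPM in 113Q and did not pass (adjusted p = 0.0865). Their sum was 3.38, 8.42 and 4.95 CPM in the WT mice against 10.6, 10.2 and 11.4 CPM in the 113Q mice, and WT mouse 2 was the highest of its group for both. The Hspa1b call was lost without WT mouse 3 (0.0896) and without 113Q mouse 1, 2 or 3 (adjusted p = 0.0753, 0.0898 and 0.102), and also in the libraries with Epcam of at least 1 CPM (0.0759) and in those below it (0.095). Hspa1a passed without WT mouse 2 (log2 fold change 1.47; edgeR adjusted p = 0.00194), with DESeq2 (0.0344), with voom (0.0145) and in the libraries with Epcam below 1 CPM (log2 fold change 1.55; edgeR adjusted p = 0.0212). It also passed with library totals alone (edgeR adjusted p = 0.00359), and the range over alternatives was 0.00194 to 0.678. Differences between the groups did not pass for Hspa2, at 7.66 to 13.8 CPM in WT and at 8.35 to 10.4 CPM in 113Q, nor for Hspa1l, at 0.115 to 0.755 CPM and 0.212 to 0.414 CPM. Both are Hsp70 genes known from male germ cells. Hspa2 was called higher with library totals alone (log2 fold change 0.62; edgeR adjusted p = 0.0283). In the libraries with Epcam of at least 1 CPM, where WT is 1 mouse, its log2 fold change was -0.49. Hspa1l exons overlap Gm10501 on the other strand, and since no strand setting is given, reads of the pair cannot be told apart.

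**Figure D2:**
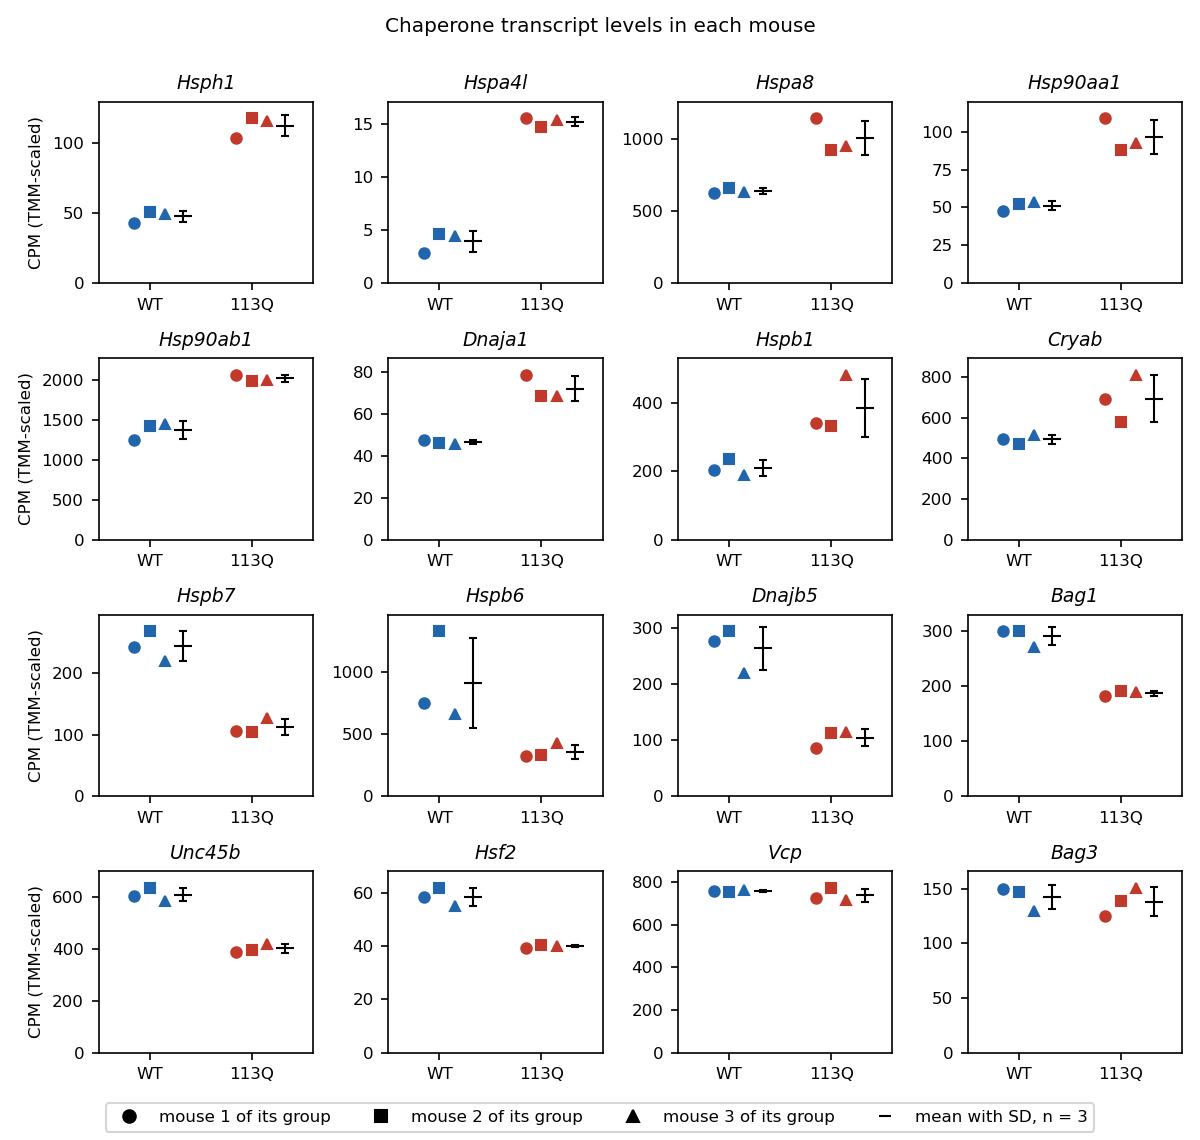
CPM with TMM scaling (y axis, from 0) of 16 transcripts in each of the 3 WT and 3 113Q mice (x axis), with the symbol giving the mouse and the black mark the group mean with SD. In the first 2 rows the 113Q mice lie above all WT mice, from Hsph1 to Cryab, and in the panels from Hspb7 to Hsf2 they lie below. Vcp and Bag3 overlap.

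Both cytosolic Hsp90 genes rose, while their partners split. Among the 7 transcripts of Hsp90 and its partners 3 rose and 2 fell, and the family had a median log2 fold change of -0.08 (0.64 with library totals alone). With library totals alone 6 of the 7 were called higher and 0 lower, against 64.9% and 4.19% of all genes. Hsp90aa1, the inducible form, rose from 47.8, 52.4 and 53.5 CPM to 109, 87.8 and 92.3 CPM. Hsp90ab1, the constitutive form, rose from 1245, 1425 and 1447 CPM to 2069, 1992 and 1999 CPM. Their log2 fold changes were 0.91 ± 0.10 and 0.56 ± 0.09 (edgeR adjusted p = 0.000334 and 0.00224), and neither had an overlap between groups. St13, also called Hip, which slows ADP release from Hsp70, rose from 67.2, 80.1 and 79.6 CPM to 109, 102 and 103 CPM (log2 fold change 0.47 ± 0.09; edgeR adjusted p = 0.00485).

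Among the partners that fell was Fkbp4, the immunophilin FKBP52 of steroid receptor complexes. It was at 263, 238 and 224 CPM in WT and at 160.0, 168 and 188 CPM in 113Q (log2 fold change -0.49 ± 0.10; edgeR adjusted p = 0.00523). Unc45b, the muscle chaperone that folds the myosin head together with Hsp90, fell from 605, 637 and 587 CPM to 389, 397 and 421 CPM (log2 fold change -0.60 ± 0.08; edgeR adjusted p = 0.00085). Both had values above 0 with library totals alone, 0.23 for Fkbp4 and 0.12 for Unc45b. Ptges3, the Hsp90 co-chaperone p23, did not pass, at 60.7 to 65.6 CPM in WT and at 53.4 to 63.4 CPM in 113Q (adjusted p = 0.28). Chordc1, an Hsp90-binding protein, also did not pass, with 39.3 to 44.4 CPM and 36.8 to 42.4 CPM (adjusted p = 0.4995).

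The small heat shock proteins differed in direction within the family relative to all genes. With library totals alone 4 were called higher and 1 lower, against 64.9% and 4.19% of all genes. Of 7 transcripts, 2 rose, 4 fell and 1 did not pass, with a median log2 fold change of -0.38 (0.34 with library totals alone). Hspb1, known as Hsp25 or Hsp27 and bound to actin and intermediate filaments, rose from 205, 236 and 189.7 CPM to 341, 334 and 484 CPM. Cryab, alpha-B-crystallin, which protects desmin filaments, rose from 496, 471 and 514 CPM to 691, 579 and 812 CPM. Their log2 fold changes were 0.88 ± 0.16 and 0.49 ± 0.12 (edgeR adjusted p = 0.00413 and 0.0161), and 113Q mouse 3 was the highest for both. In the 3 libraries with Epcam of at least 1 CPM, where WT is 1 mouse, neither passed (edgeR adjusted p = 0.147 for Hspb1 and 0.184 for Cryab), with log2 fold changes of 0.79 and 0.56. In the 3 below it, where 113Q is 1 mouse, Cryab did not pass (0.0528), with a log2 fold change of 0.45. Hspb8, which forms a complex with Bag3 that hands damaged filament proteins to autophagy, was at 526, 367 and 491 CPM in WT and at 623, 555 and 611 CPM in 113Q. The groups did not overlap, but the log2 fold change of 0.37 ± 0.14 missed the threshold (edgeR adjusted p = 0.0669). It passed without WT mouse 1 (0.0424), with DESeq2 (0.0281), with a block on the mouse number (0.0411), with a term for the libraries with Epcam (0.0134) and in those libraries alone (0.00585), and the range over alternatives was 0.000221 to 0.182.

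Hspb7, the cardiovascular small heat shock protein that binds filamin, fell from 243, 268 and 219.7 CPM to 106, 104 and 127 CPM (log2 fold change -1.12 ± 0.11; edgeR adjusted p = 0.000214). Hspb6, also called Hsp20, was at 751, 1334 and 667 CPM in WT and at 319.9, 329 and 425 CPM in 113Q. Its log2 fold change was -1.36 ± 0.29 (edgeR adjusted p = 0.0134), WT mouse 2 stood above the other WT mice, and the call was lost without 113Q mouse 2 (0.0577). Hspb2 and Hspb3, which form a complex in muscle, fell less: Hspb2 from 118, 89.0 and 107 CPM to 77.8, 71.5 and 85.3 CPM, and Hspb3 from 42.8, 35.9 and 33.6 CPM to 26.4, 30.6 and 29.2 CPM. Their log2 fold changes were -0.42 ± 0.12 and -0.38 ± 0.11 (edgeR adjusted p = 0.0241 and 0.0279), against 0.30 and 0.34 with library totals alone. The Hspb2 call was lost without WT mouse 1 or 3 (adjusted p = 0.0704 and 0.068) and without 113Q mouse 1 or 2 (0.0729 and 0.0982), in the libraries with Epcam of at least 1 CPM (0.319) and with a term for them (0.0504). The Hspb3 call was lost without WT mouse 1 (0.0791), without 113Q mouse 1, 2 or 3 (0.0903, 0.0513 and 0.0733) and with a block on the mouse number (0.0751). It was also lost in the libraries on either side of 1 CPM of Epcam (0.0894 at or above it and 0.0848 below). Hspb2 and Cryab are divergent neighbours on chromosome 9 whose exons overlap by 252 bp, and without a stated strand setting reads of the overlap cannot be told apart.

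The J-domain proteins, which bring clients to Hsp70, were mostly lower relative to all genes. With library totals alone 4 of the 8 were called higher and 1 lower, against 64.9% and 4.19% of all genes. Of 8 transcripts, 1 rose, 5 fell and 2 did not pass, with a median log2 fold change of -0.51 (0.21 with library totals alone). The member that rose was Dnaja1, which works with Hspa8 on steroid receptors and other clients. It was at 47.5, 46.4 and 45.8 CPM in WT and at 78.9, 68.5 and 68.9 CPM in 113Q (log2 fold change 0.63 ± 0.08; edgeR adjusted p = 0.000731). Its close relative Dnaja2 fell from 259, 232 and 235 CPM to 184, 182 and 175 CPM (log2 fold change -0.43 ± 0.08; edgeR adjusted p = 0.00423), but was called higher with library totals alone (0.29; edgeR adjusted p = 0.0122). Dnajb5 fell from 276, 294 and 219.8 CPM to 86.5, 113 and 113 CPM, a log2 fold change of -1.34 ± 0.15 (edgeR adjusted p = 0.000353). Dnajb6, an inhibitor of polyglutamine aggregation whose mutation causes a limb-girdle muscular dystrophy, fell from 132, 116 and 125 CPM to 80.0, 81.8 and 78.1 CPM. Its log2 fold change was -0.64 ± 0.08 (edgeR adjusted p = 0.000542), but 0.08 with library totals alone. Dnajc7, which binds both Hsp70 and Hsp90, and Dnajb4 had log2 fold changes of -0.71 ± 0.11 and -0.60 ± 0.10 (edgeR adjusted p = 0.00183 and 0.00207), against 0.015 and 0.12 with library totals alone. Dnajc7 was at 189 to 244 CPM in WT and at 126 to 145 CPM in 113Q, and Dnajb4 at 81.7 to 98.4 CPM and 57.2 to 65.4 CPM. In the libraries with Epcam below 1 CPM, where 113Q is 1 mouse, Dnaja2 and Dnajb4 did not pass (adjusted p = 0.0828 and 0.0844), with log2 fold changes of -0.43 and -0.44.

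Dnajb1, the stress-inducible Hsp40, did not pass, at 10.5, 10.1 and 10.8 CPM in WT and at 10.2, 10.8 and 13.6 CPM in 113Q (log2 fold change 0.14 ± 0.13; edgeR adjusted p = 0.453). Its groups overlapped. Dnajb2, which carries ubiquitin-interacting motifs, was at 68.4 to 80.0 CPM in WT and at 54.6 to 66.9 CPM in 113Q. It also did not pass (edgeR adjusted p = 0.087). Dnajb2 was called lower with a term for the libraries with Epcam (0.0129). With library totals alone it was called higher instead (log2 fold change 0.47; edgeR adjusted p = 0.00185), and the range over alternatives was 0.00185 to 0.231.

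Of the Bag proteins, the ubiquitin ligase Stub1 and the segregase Vcp, 1 of 4 fell and 0 rose. With TMM factors, 0 were higher at an unadjusted p below 0.05 in edgeR, and 0 were called higher by DESeq2 or limma. With library totals alone 3 of the 4, Bag3, Stub1 and Vcp, were called higher and 0 lower, against 64.9% and 4.19% of all genes. Bag1, a nucleotide exchange factor linking Hsp70 to the proteasome, fell from 299, 299 and 271 CPM to 181, 189.9 and 188 CPM (log2 fold change -0.64 ± 0.08; edgeR adjusted p = 0.000596), against 0.08 with library totals alone. Bag3, which links Hsp70 to autophagy at the Z-disc, was at 150.1, 147 and 129.6 CPM in WT and at 125, 139 and 151 CPM in 113Q (adjusted p = 0.783). Vcp, an ATPase that pulls ubiquitinated proteins out of complexes, was at 759.6, 755 and 761 CPM in WT and at 724, 774 and 717 CPM in 113Q (adjusted p = 0.734). Stub1, the ligase CHIP, was at 55.9, 52.9 and 50.05 CPM and at 43.5, 44.6 and 50.7 CPM (adjusted p = 0.124). The groups of these last 3 overlapped, and Stub1 exons overlap Jmjd8 on the other strand.

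The mitochondrial chaperonin and its lid both fell relative to all genes. Hspd1, Hsp60, went from 249, 227 and 257 CPM to 197, 185 and 177 CPM, and Hspe1, Hsp10, from 61.1, 53.4 and 49.1 CPM to 41.6, 38.4 and 43.5 CPM. Their log2 fold changes were -0.39 ± 0.09 and -0.40 ± 0.10 (edgeR adjusted p = 0.00867 and 0.0141), and both were called higher with library totals alone, at 0.33 and 0.32. The Hspe1 call was lost without 113Q mouse 2 (0.0617), and neither passed in the libraries with Epcam below 1 CPM (0.12 for Hspd1 and 0.14 for Hspe1), where 113Q is 1 mouse and the log2 fold changes were -0.36 and -0.40. Of the heat shock factors, Hsf2, a developmental factor that can pair with Hsf1, fell from 58.4, 62.0 and 55.0 CPM to 39.4, 40.4 and 40.1 CPM (log2 fold change -0.55 ± 0.08; edgeR adjusted p = 0.00097), against 0.17 with library totals alone. Hsf1, the main stress-activated factor, was at 51.7, 54.0 and 43.9 CPM and at 38.3, 45.1 and 48.8 CPM, with overlapping groups (edgeR adjusted p = 0.274).

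Ratios of 2 transcripts within a library do not depend on the scaling, and 12 pairs of related members were compared this way. With 3 mice against 3 the exact two-sided permutation test cannot go below p = 0.1, and no pair could pass the threshold. The smallest value adjusted over the 12 pairs was 0.12. The count ratio of Hspa4l to Hspa4 was 3.60 times higher in 113Q (log2 difference 1.85 ± 0.22, SE), and that of Hsph1 to Hspa4 was 2.15 times higher (1.11 ± 0.08), each with an exact p = 0.1 and no overlap between groups. Dnaja1 relative to Dnaja2 was 2.08 times higher (1.05 ± 0.07; exact p = 0.1) and Dnajb1 relative to Dnajb5 was 2.76 times higher (1.47 ± 0.19; exact p = 0.1). Hspb7 relative to Cryab was at 0.331 of its WT value (log2 difference -1.60 ± 0.14; exact p = 0.1). Bag1 relative to Bag3 was at 0.663 (-0.59 ± 0.07; exact p = 0.1).

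Among the other pairs, the inducible against the constitutive Hsp90, Hsp90aa1 to Hsp90ab1, was at 1.27 times (log2 difference 0.35 ± 0.08; exact p = 0.1). Hsf1 to Hsf2 was at 1.29 times (0.37 ± 0.11; exact p = 0.1), Hspb8 to Bag3 at 1.34 times (0.43 ± 0.21; exact p = 0.1) and Hspa8 to Hspa2 at 1.64 times (0.71 ± 0.30; exact p = 0.1). Cryab to Hspb1 overlapped between the groups (log2 difference -0.38 ± 0.15; exact p = 0.2). Hspd1 to Hspe1, the ring and its lid, had a log2 difference of 0.01 ± 0.14 (exact p = 1).

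**Figure D3:**
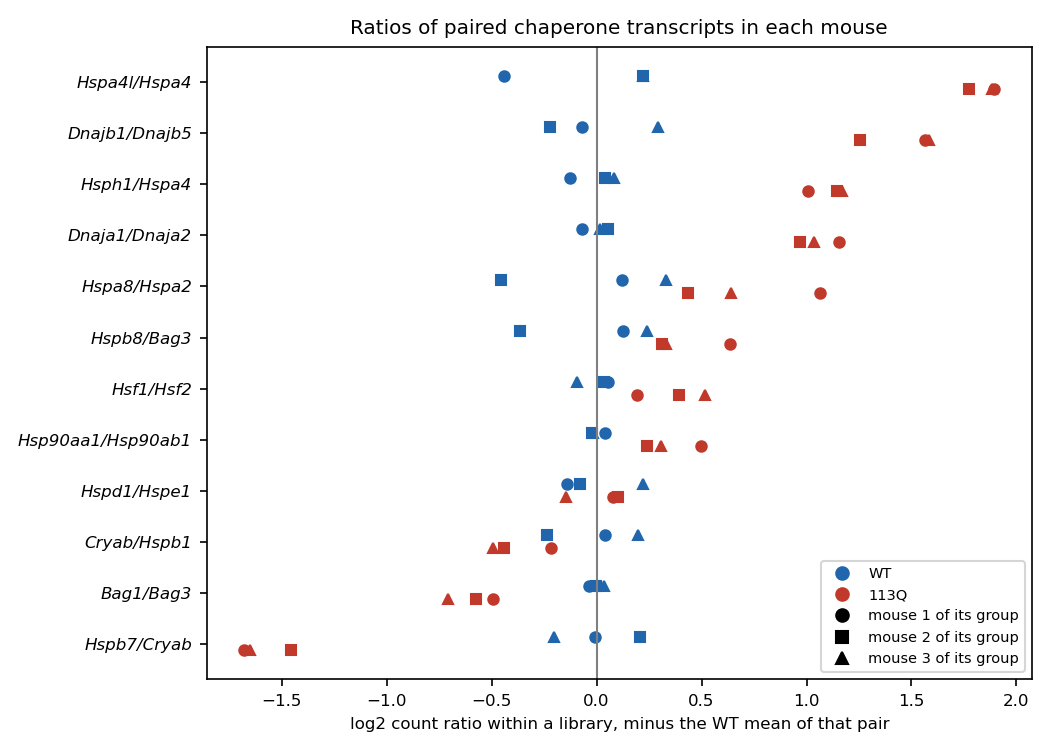
Log2 count ratio of 12 pairs of transcripts (y axis) within each library, minus the WT mean of the pair (x axis), for 3 WT mice in blue and 3 113Q mice in red, with the symbol giving the mouse. The 113Q mice lie to the right of all WT mice for Hspa4l/Hspa4, Dnajb1/Dnajb5, Hsph1/Hspa4 and Dnaja1/Dnaja2 and to the left for Hspb7/Cryab and Bag1/Bag3, and the groups overlap for Hspd1/Hspe1 and Cryab/Hspb1.

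To compare levels between genes, CPM was divided by the exon length of each gene in kb. This length joins all annotated exons of the gene over all its transcripts. It can exceed the length of the transcript that is expressed, so the order of genes depends partly on annotation. Hsp90ab1 was the most abundant member in WT, at 458 ± 37.0 CPM per kb (mean ± SD, n = 3), followed by Hspb6 at 399 ± 158, Cryab at 334 ± 14.3, Hspb8 at 237 ± 43.0 and Bag1 at 215 ± 12.0. The spread of Hspb6 takes in both of its neighbours, and those of Hspb8 and Bag1 overlap. In 113Q the order was Hsp90ab1 at 674 ± 14.1 CPM per kb, Cryab at 469 ± 78.6, Hspb1 at 375 ± 82.3, Hspb8 at 306 ± 18.8 and Hspa8 at 234 ± 28.1. The SD ranges of Cryab and Hspb1, and of Hspb1 and Hspb8, overlap, while those of Hspb8 and Hspa8 do not. These ranges are between mice, and the order of the genes within each mouse was not compared. Hspb6 went from the second to the sixth place and Hspb1 from the sixth to the third. Hspa1l was the least abundant in both groups, at 0.137 ± 0.146 and 0.139 ± 0.0464 CPM per kb. Hspa4l stayed scarce beside its relative Hspa4 after its rise, at 1.29 ± 0.0378 against 35.8 ± 0.624 CPM per kb in 113Q. Hsp90ab1 and Hspa8 together held 22.3%, 23.2% and 25.2% of the counts of the 38 genes in WT and 36.9%, 35.1% and 33.2% in 113Q.

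**Figure D4:**
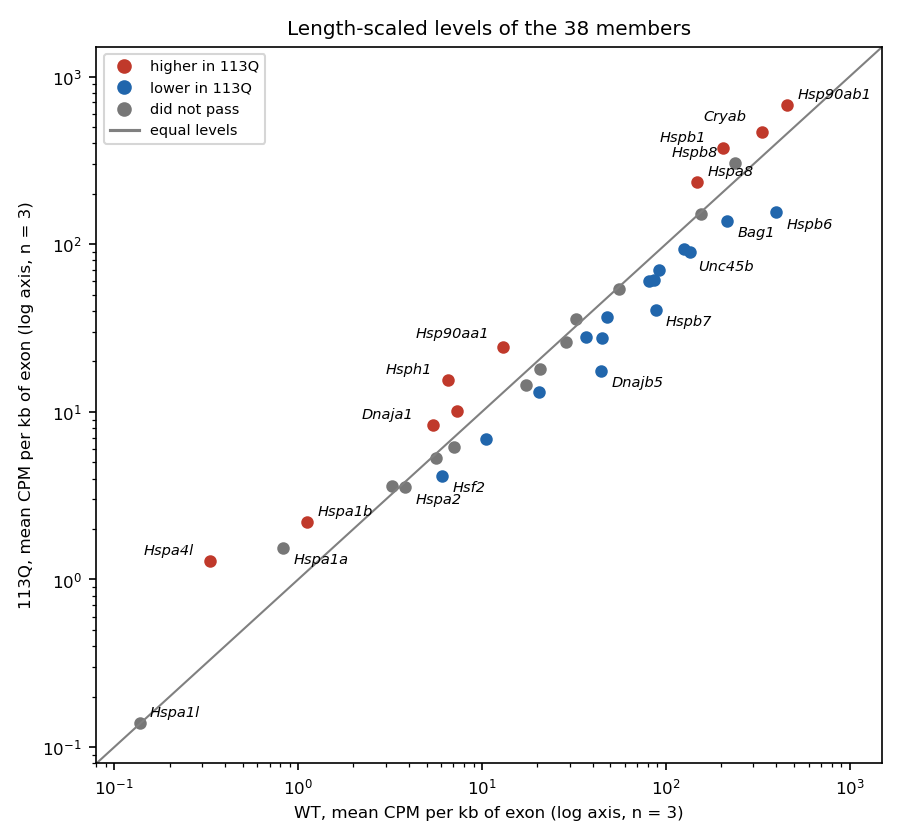
Mean CPM per kb of exon in WT (x axis) and 113Q (y axis) for the 38 members, both on log axes, n = 3 a group, coloured by the test result, with the line of equal levels. Hspa4l lies farthest above the line at a low level, Hsp90ab1 is the highest member in both groups, and Hspb6, Hspb7 and Dnajb5 lie farthest below it.

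Other genes of the folding machinery were read from 8 lists with 141 tested genes that are not among the 38. Of these, 25 rose, 36 fell and 80 did not pass, with a median log2 fold change of -0.05 (0.67 with library totals alone). For these and for each list below, the shares to set beside the counts are those over all genes tested. They were 16.5% higher and 18.1% lower, and with library totals alone 64.9% and 4.19%. In the list of other mitochondrial chaperones, 12 of 19 fell and 0 rose (0 higher at an unadjusted p below 0.05 in edgeR or by DESeq2 or limma), with a median of -0.44. With library totals alone 10 were called higher and 2 lower, with a median of 0.28. Hspa9, the mitochondrial Hsp70, fell from 676, 708 and 686 CPM to 393, 359 and 368 CPM (log2 fold change -0.89 ± 0.08; edgeR adjusted p = 0.000125). Its J-domain partners Dnaja3 and Dnajc15 had log2 fold changes of -0.89 ± 0.08 and -1.01 ± 0.08. In the list of 11 genes headed other Hsp70 relatives and exchange factors, 3 rose and 0 fell in edgeR, with 1 lower at an unadjusted p below 0.05, 1 lower by DESeq2 and 0 by limma (median 0.01). Hspa13, an Hsp70 relative of the endoplasmic reticulum, rose 2.02-fold, Bag2, an inhibitor of Stub1, 1.82-fold, and Hspb11, 2.17-fold. Hspb11 is the ciliary transport protein Ift25 and neither an Hsp70 relative nor an exchange factor, so 2 of the 3 belong under the list's name.

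Of 25 other J-domain proteins, 3 rose, 3 fell and 19 did not pass (median 0.17). Dnaja4 rose 2.24-fold, from 71.7, 48.0 and 61.9 CPM to 148, 133 and 125 CPM, while Dnajc21 and Dnajc2, which act at the ribosome or in its assembly, had log2 fold changes of -1.33 ± 0.09 and -0.54 ± 0.08. The list of 25 other Hsp90 co-chaperones had 7 members that rose and 6 that fell (median -0.03). The 3 with the smallest p all fell: Ttc4 (-0.88 ± 0.09), Smyd1, a muscle methyltransferase that acts with Hsp90 and Unc45b on myosin (-0.83 ± 0.08), and Rpap3 (-0.54 ± 0.08). Of 16 TRiC and prefoldin genes, which fold actin and tubulin, 2 rose, 4 fell and 10 did not pass (median 0.04). The TRiC subunit Cct3 rose 1.49-fold, and the prefoldin subunits Pfdn1 and Pfdn2 had log2 fold changes of -0.82 ± 0.10 and -0.73 ± 0.12.

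Of 27 Vcp cofactors, 7 rose, 6 fell and 14 did not pass (median -0.01), with Ubxn2a at -0.91 ± 0.10, Faf1 at -0.78 ± 0.09 and the stress-inducible Zfand2a at 0.64 ± 0.10. Among 7 other heat shock regulators, Hsf4, another heat shock factor, rose 1.58-fold and Hsbp1l1 had a log2 fold change of -1.47 ± 0.49 at 0.156 to 1.02 CPM, a call lost without WT mouse 1 or 3 and without any 113Q mouse. Of 11 partners of chaperone-assisted autophagy, 2 rose, 4 fell and 5 did not pass (median 0.05). Synpo2, the myopodin that binds Bag3, had a log2 fold change of -1.16 ± 0.10, Synpo2l of -0.48 ± 0.08 and the transglutaminase Tgm2 of 0.45 ± 0.10. With library totals alone the signs of Dnajc2, Rpap3 and Synpo2l were reversed, at 0.18, 0.18 and 0.23, while Dnajc21, Dnajc15 and Synpo2 were still called lower. On that scale Pfdn1, Pfdn2, Ttc4, Smyd1, Dnaja3, Hspa9, Ubxn2a, Faf1 and Hsbp1l1 kept negative values that did not pass. The Tgm2 and Hsbp1l1 calls were lost in the libraries on either side of 1 CPM of Epcam, and those of Hsf4 and Dnajc2 in the libraries below it.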

How the data were processed

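Messenger RNA libraries of whole LA/BC muscle were sequenced from 3 WT and 3 113Q mice. The authors deposited estimated counts per gene, which need not be whole. The submitters' processing notes list FastQC 0.10.0, cutadapt, TopHat2 2.0.9, Bowtie2 2.1.0, Cufflinks, Cuffdiff 2.1.1 and mm10. No source used here states the strand setting or gene annotation. Counts were rounded and tested with edgeR 4.0.16 in R 4.3.3 (filterByExpr with a minimum count of 10, TMM, robust quasi-likelihood fit, two-sided, Benjamini-Hochberg over 16960 of 27131 genes, threshold 0.05). The biological coefficient of variation was 24.2%. With the TMM factors, 3 counts were worth 0.0322 to 0.0888 CPM. Alternatives used library totals alone, other filters, DESeq2 1.42.0, limma 3.58.1 (voom), a block on the mouse number, splits by Epcam and each mouse left out. The labels number the mice but do not say how they are related, so p-values measure the spread between these samples. Ratios used a pseudocount of 0.5. Exon lengths, coordinates and shared words come from GENCODE M21, promoters from RefSeq.

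The members and lists were chosen with earlier results of these data known. Named are all members, the 3 called genes with the smallest p in each other chaperone list, and the markers Epcam, Acta2 and Ckm. Others (Pgk2, Des, Myh11, and genes that overlap members) were chosen after their values were seen. Summed markers of endothelium were 400 to 501 CPM in WT and 277 to 282 CPM in 113Q (8 of 8 lower). Fibroblast markers summed to 1684 to 2779 and 2515 to 2945 CPM, adipocyte markers to 23.6 to 382 and 74.5 to 237, macrophage markers to 44.8 to 62.5 and 53.5 to 60.2, and Schwann markers to 96.3 to 130 and 82.6 to 122. The edgeR, DESeq2 and voom fits were tried on simulated counts in which a small share of genes changed, in both directions. That trial cannot speak to the difference in scaling factors between the groups, and the ratios and the promoter search were not simulated.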

Additional observations from a re-analysis of the deposited data

How the results depend on the processing

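Of 645 values of members under 17 alternatives, 566 kept their direction and side of the threshold and 35 changed sign. Among the values that kept their sign, 29 lost a call and 15 gained one. Values that changed sign were counted only as such, whether or not a call was also lost or gained. The scaling mattered most. With library totals alone, 27 members were called higher and 2 lower, 11015 of all genes higher and 710 lower, 112 genes of the other lists higher and 6 lower, and the members' median was 0.60. On that scale the log2 fold changes of Hspa1l (0.71), Hspa2 (0.62), Hspb2 (0.30), Hspb3 (0.34), Dnaja2 (0.29), Dnajb2 (0.47), Dnajb4 (0.12), Dnajb6 (0.084), Dnajc7 (0.015), Bag1 (0.084), Bag3 (0.68), Stub1 (0.52), Hspd1 (0.33), Hspe1 (0.32), Hsf1 (0.54), Hsf2 (0.17), Vcp (0.68), Unc45b (0.12), Fkbp4 (0.23), Ptges3 (0.59) and Chordc1 (0.64) were reversed. Hspa1l, near the count minimum, was also reversed with DESeq2 (0.0034), with no filter (0.017), in the libraries with Epcam below 1 CPM (0.69), with a block on the mouse number (0.38), with voom (0.86), without 113Q mouse 1 (0.25) and without WT mouse 2 (1.39), with a range of -0.43 to 1.39 over the fits without 1 mouse. Hspa2 was reversed below 1 CPM of Epcam (0.025), with voom (0.071) and without WT mouse 2 (0.19), Bag3 with voom (0.028) and without 113Q mouse 1 (0.034), and, below 1 CPM of Epcam, Dnajb1 (-0.056) and Ptges3 (0.0056). With the 3 libraries below 1 CPM of Epcam, 1300 genes were higher and 1827 lower over all, and 11 and 23 in the other lists, against 2544 and 2753, and 23 and 35, in the 3 at or above it. The cause was not tested. The members' median was -0.20 in the libraries with Epcam, -0.22 with a term for it and -0.25 without WT mouse 3, and the cause was not tested. Leaving out 1 mouse at a time gave 9 to 11 members higher and 11 to 15 lower, 2004 to 2559 and 2312 to 2843 over all genes, 20 to 24 and 28 to 36 in the other lists, a median of -0.25 to -0.10, and a ratio of Hspd1 to Hspe1 of -0.057 to 0.12 on the log2 scale, reversed without WT mouse 1 (-0.057), WT mouse 2 (-0.028), 113Q mouse 1 (-0.020) and 113Q mouse 2 (-0.033). Mice with the same number did not deviate together (correlations 0.20, 0.24 and -0.27), and the replicate block gave 11 members higher and 14 lower, and 2154 and 2583 over all genes. With 3 mice a group, the ratio tests could not pass the threshold.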
